A study of Mus musculus with 4 samples.

Results

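The histone lysine methylases, demethylases and their PRDM and SMYD relatives were compared between leukemic and non-leukemic mouse erythroid progenitors. Members were all genes whose single symbol in the array's gene table matched Kdm2 to Kdm8, Kmt2, Kmt5, the Setd genes with Setdb, the numbered Prdm genes, Ehmt1, Ehmt2, Suv39h, Smyd1 to Smyd5, Nsd1 to Nsd3 or was Dot1l, with Kdm5d left out. The rule found 57 of the 19938 genes tested and used no measured value, except that a gene with several probe sets was represented by its brightest one on average across the 4 arrays. It and the gene lists used below were, however, chosen with earlier results of these data known. Suv39h1 and Prdm12 had no single-symbol probe set in the table and were not analysed here.

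RNA from 2 cultures of MEL cells and 2 cultures of ES-EP was hybridised to Affymetrix Mouse Gene 1.0 ST arrays, 1 array per culture, called A and B in each cell type. MEL cells are a murine erythroleukemia line. The line used was a single clone that stably carries Gata-1 fused to ER, the ligand-binding domain of the estrogen receptor, and the sources used here name no estrogen treatment. ES-EP are erythroid progenitors derived from embryonic stem cells, with no transgene named. Both were proliferating, but in different media. MEL cells grew in DMEM with serum and puromycin, and ES-EP in a StemPro34 medium with Epogen, IGF-1, dexamethasone, SCF and mercaptoethanol, so cell type, fusion protein and medium cannot be told apart. Mouse strain and age were not given in the sources used here, and the paper names the sex of neither cell type.

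Methyl groups on histone lysines are written by SET-domain enzymes, and by Dot1l, which has no SET domain, and are removed largely by Jumonji-domain demethylases that need oxygen, iron and α-ketoglutarate. Methylation of H3K4, H3K36 and H3K79 marks active promoters, enhancers and transcribed gene bodies. Trimethylation of H3K9, H3K27 and H4K20 marks silent or compacted chromatin, which spreads through the nucleus as an erythroblast matures. Mixed-lineage leukemia takes its name from Kmt2a, and several other members are rearranged or mutated in blood cancers.

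Values were log2 signals as deposited, and a gene was called when the limma adjusted p of MEL minus ES-EP, taken over all 19938 genes, was under 0.05. Of the 57 members 25 were called higher in MEL, 9 were called lower and 23 were not called. The members called higher were 43.9% of the list, against 20.5% of all genes, and those called lower were 15.8%, against 43.2% of all genes. At 2-fold or more, 5 of the 57 members were higher (Kdm3a, Kdm5b, Setd5, Smyd5 and Kdm5c), against 5.72% of all genes. In the other direction 2 of the 57 were lower (Prdm11 and Setd6), against 4.27%. Both counts are small and not far from the shares over all genes. The median member difference was 0.09 on the log2 scale, with a median of -0.15 over all genes, and it was 0.22 to 0.25 under 3 other scalings that brought the all-gene median near 0. The deposited arrays do not share a median, and median centring moved the background to 28.9% of all genes called higher and 28.3% lower, with 29 members higher and 8 lower. The 2-fold higher count was 6 with median centring, which added Kmt5c, and 4 without ES-EP A, which took Kdm5c under 2-fold. In RNA from whole cultures, fewer cells of a type and less RNA per cell cannot be told apart.

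The MEL arrays had median signals of 5.68 and 5.67 over 35557 probe sets, and the ES-EP arrays of 5.81 and 5.84. As a guide to background, the 95th percentile of 1027 olfactory receptor genes lay at 5.19 in MEL and 5.56 in ES-EP, and this is called the olfactory level below. Of the members 52 were above it in both cell types. Among the 11372 genes of the array above it in both, 26.5% were called higher and 41.3% lower, whereas 25 of those 52 members were called higher and 7 lower. Erythroid markers were above it in both cell types for 9 of 9 measured, with a mean signal over the list of 9.21 to 9.26 in MEL and 10.58 to 10.66 in ES-EP. Of these 9, Gata1 and Nfe2 were called higher in MEL, Epor was not called and the other 6 were called lower. Mean differences ran from -5.47 for the late erythroid gene Slc4a1 to 1.14 for Gata1, where the fusion transcript was not told apart from the endogenous one. Of 6 mast cell markers 1 was above the level in MEL and 2 in ES-EP, with list means of 4.22 to 4.29 in MEL and 5.83 to 5.89 in ES-EP, where Ms4a2 was at 11.05 against 3.95 in MEL. Of 4 megakaryocyte markers 3 were above the level in MEL and 2 in ES-EP, with list means of 7.34 to 7.48 in MEL and 5.24 to 5.27 in ES-EP. Macrophage and granulocyte markers were above it for 0 of 6 in MEL and 1 of 6 in ES-EP, pluripotent stem cell markers for 1 of 6 in each, B cell markers for 1 of 4 in each, T cell markers for 1 of 3 in each and fibroblast markers for 4 of 5 in each. Among the olfactory receptor genes themselves 461 of 1027 were called lower, with a median difference of -0.20. The part of these differences in the members' values was not tested.

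Start-site sequences are shown for the members with the 2 largest called differences in each direction, Kdm3a and Kdm5b (higher in MEL) and Prdm11 and Setd6 (lower in MEL). RefSeq windows of 300 bases on build GRCm38.p6, with 250 bases before the start and 50 after it, were at hand for 42 of the 57 members. Capitals mark GAGGAAG, a purine-rich string with the GGAA core that Ets factors such as PU.1 recognise, searched on both strands. The windows, 5′ to 3′ on each gene's own strand, are Kdm3a at chr6:71632868-71633167 (minus strand), Kdm5b at chr1:134559928-134560227 (plus strand), Prdm11 at chr2:93046116-93046415 (minus strand) and Setd6 at chr8:95715663-95715962 (plus strand).
Kdm3a: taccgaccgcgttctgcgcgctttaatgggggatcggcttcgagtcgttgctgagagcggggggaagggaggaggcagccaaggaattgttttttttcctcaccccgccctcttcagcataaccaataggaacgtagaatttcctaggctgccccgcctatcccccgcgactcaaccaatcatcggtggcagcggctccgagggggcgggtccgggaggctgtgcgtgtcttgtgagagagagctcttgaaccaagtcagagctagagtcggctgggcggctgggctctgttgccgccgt
Kdm5b: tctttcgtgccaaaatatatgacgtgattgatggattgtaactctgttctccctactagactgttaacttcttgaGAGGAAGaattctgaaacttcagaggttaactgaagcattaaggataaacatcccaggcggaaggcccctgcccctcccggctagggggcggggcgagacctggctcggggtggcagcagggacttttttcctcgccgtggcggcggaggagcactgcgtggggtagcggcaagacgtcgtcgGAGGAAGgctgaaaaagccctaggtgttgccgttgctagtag
Prdm11: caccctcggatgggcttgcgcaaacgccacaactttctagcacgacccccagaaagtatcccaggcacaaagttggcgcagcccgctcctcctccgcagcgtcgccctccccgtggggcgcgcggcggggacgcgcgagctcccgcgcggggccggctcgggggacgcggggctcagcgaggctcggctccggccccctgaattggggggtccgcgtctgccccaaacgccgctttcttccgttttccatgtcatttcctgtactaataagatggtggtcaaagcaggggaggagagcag
Setd6: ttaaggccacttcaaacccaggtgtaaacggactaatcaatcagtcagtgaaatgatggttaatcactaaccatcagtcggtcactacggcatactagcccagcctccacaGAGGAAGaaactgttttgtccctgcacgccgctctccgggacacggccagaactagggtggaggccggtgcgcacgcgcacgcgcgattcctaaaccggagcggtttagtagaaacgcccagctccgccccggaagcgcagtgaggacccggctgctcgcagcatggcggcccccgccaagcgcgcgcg
The string occurred 2 times in the Kdm5b window and 1 time in that of Setd6. Neither the Prdm11 window nor the Kdm3a window printed, the first listed of 3 for that gene, held it. Over the members it was found for 5 of 42 (Kdm2b, Kdm5b, Prdm1, Setd6 and Smyd2), or 11.9%, against 15.4% of 27025 genes in the table. The GATA string AGATAA was found for 4 of 42 members (Kdm4c, Kdm8, Setd5 and Setdb1), or 9.52%, against 12.7% of all genes. Both strings were counted in any window of a gene, and a match is not evidence of binding. The members' first windows held a median of 22.5 CpG dinucleotides, against 7 over all genes in the table.

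The KMT2 methylases, which build H3K4 methylation at promoters and enhancers, were called higher in MEL in 5 of 5 members, against 20.5% of all genes. The Setd1 enzymes that carry out most H3K4 trimethylation were lower. Kmt2b, which acts at CpG-rich promoters, had 8.60 and 8.37 in MEL, against 7.63 and 7.80 in ES-EP, a difference of 0.77 ± 0.10 (adjusted p = 7.9e-05) (the value after ± is the standard error of the fit here and below). Kmt2d and Kmt2c are paired as enhancer monomethylases. Kmt2d had 8.50 and 8.37 in MEL, against 7.61 and 7.96 in ES-EP, and its difference was 0.65 ± 0.11 (adjusted p = 0.000608). Kmt2c had 8.75 and 8.61 in MEL, against 7.95 and 8.16 in ES-EP, a difference of 0.63 ± 0.10 (adjusted p = 0.00025). In each of these 3 genes both MEL arrays lay above both ES-EP arrays. Here and below, the share of all genes with such separation was not counted, so it adds no support beyond the call. Kmt2e, a family member with little methylase activity of its own, stood at 9.10 and 9.02 in MEL, against 8.32 and 8.60 in ES-EP, a difference of 0.60 ± 0.10 (adjusted p = 0.000486). Kmt2a, the gene broken in mixed-lineage leukemia, stood at 8.58 and 8.47 in MEL, against 7.86 and 8.23 in ES-EP, a difference of 0.48 ± 0.12 (adjusted p = 0.00432). The MEL and ES-EP values of Kmt2e and Kmt2a did not overlap either. In all 5 genes ES-EP B lay closer to MEL than ES-EP A did, by 0.17 (Kmt2b) to 0.37 (Kmt2a). All 5 calls held under quantile normalization, median centring and cyclic loess. Without ES-EP A the Kmt2a difference was 0.30 and still called. Without MEL A its call was lost (0.43, adjusted p = 0.0658), and a dimmer Kmt2d probe set was not called (0.12 ± 0.16, adjusted p = 0.529).

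**Figure D1:**
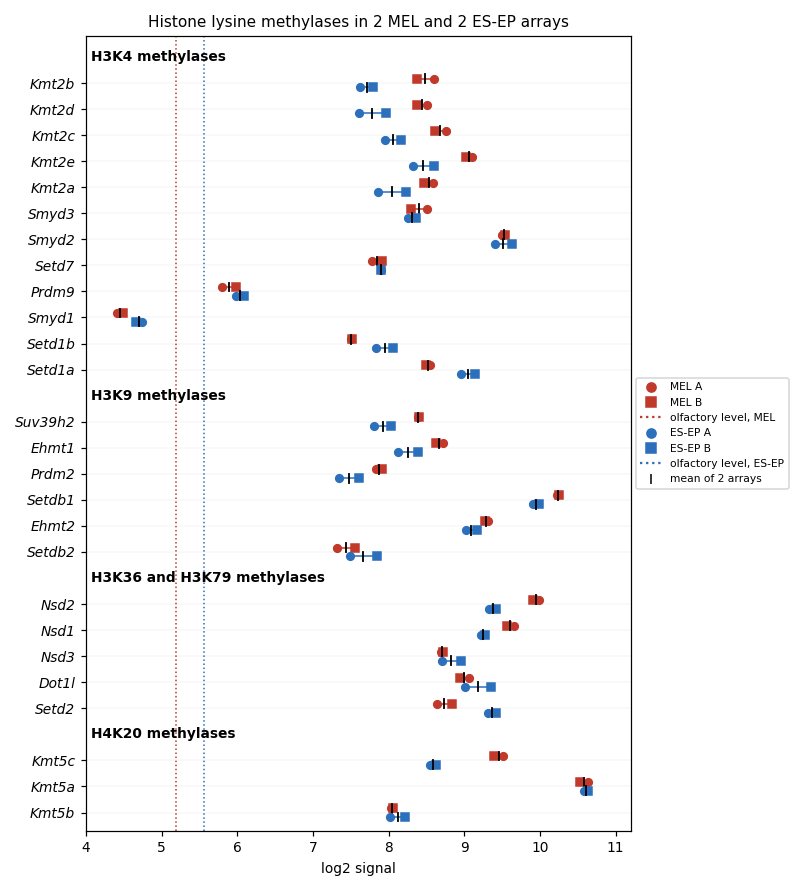
Log2 signal of 26 methylases in MEL A and B (red, upper mark of each row) and ES-EP A and B (blue, lower mark), with circles for A, squares for B and a black tick for the mean of 2 arrays. Dotted lines are the olfactory levels of 5.19 in MEL and 5.56 in ES-EP, and the 5 KMT2 genes lie to the right in MEL while Setd1a and Setd1b lie to the left.

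Among the other H3K4 methylases, Setd1a had 8.55 and 8.50 in MEL, against 8.96 and 9.15 in ES-EP, a difference of -0.53 ± 0.09 (adjusted p = 0.000488). Setd1b, its paralog, had 7.50 and 7.51 in MEL, against 7.83 and 8.06 in ES-EP, a difference of -0.44 ± 0.09 (adjusted p = 0.00204). Both MEL arrays were below both ES-EP arrays for each gene, although a second, dimmer Setd1b probe set was not called (-0.05 ± 0.10, adjusted p = 0.649). Smyd1, a striated muscle enzyme, was called lower at signals under the olfactory level in both cell types, 4.41 and 4.49 in MEL, against 4.74 and 4.66 in ES-EP (-0.25 ± 0.08, adjusted p = 0.0226), and that call was lost in 7 of the alternatives run. The remaining enzymes Setd7, Smyd2, Smyd3 and the meiotic enzyme Prdm9 were not called, with differences between -0.15 and 0.09. In all, 5 of 12 H3K4 methylases were called higher (41.7%, against 20.5% of all genes) and 3 lower (25%, against 43.2%).

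H3K9 methylases prepare the binding sites of heterochromatin protein HP1. By limma 4 of 6 were called higher (66.7%, against 20.5% of all genes) and 0 lower (against 43.2%). At an unadjusted p under 0.05 these counts were 5, with Ehmt2 added, and 0. All 4 calls were lost in the limma test against a 1.2-fold difference (adjusted p of 0.0688 to 0.676). Suv39h2, which trimethylates H3K9 at repeats near centromeres, had 8.39 and 8.40 in MEL, against 7.81 and 8.03 in ES-EP, a difference of 0.47 ± 0.09 (adjusted p = 0.00126). Ehmt1 and Ehmt2 work as a pair that dimethylates H3K9 in euchromatin. Ehmt1 had 8.71 and 8.62 in MEL, against 8.12 and 8.39 in ES-EP, and its difference was 0.41 ± 0.10 (adjusted p = 0.0044). Ehmt2 had 9.31 and 9.27 in MEL, against 9.02 and 9.17 in ES-EP, and its difference was not called (0.20 ± 0.09, adjusted p = 0.066). In both genes the MEL arrays lay above the ES-EP arrays, and Ehmt2 was called higher under each of the 3 other scalings (adjusted p of 0.00487 to 0.02). Setdb1, which silences retroelements together with Trim28, had 10.23 and 10.25 in MEL, against 9.91 and 9.98 in ES-EP, a difference of 0.29 ± 0.08 (adjusted p = 0.00871). Its paralog Setdb2 had 7.32 and 7.55 in MEL, against 7.48 and 7.85 in ES-EP, and the groups overlapped (-0.23 ± 0.12, adjusted p = 0.13). Prdm2, a PR-domain H3K9 methylase, had 7.83 and 7.91 in MEL, against 7.35 and 7.61 in ES-EP, a difference of 0.39 ± 0.10 (adjusted p = 0.0059). Without ES-EP A it was 0.26 and still called, and its second probe set gave 0.35 ± 0.10 (adjusted p = 0.00908). The Ehmt1 call was lost without MEL A (difference 0.37, adjusted p = 0.059), and the Prdm2 and Setdb1 calls without MEL B (0.35, adjusted p = 0.0701, and 0.28, adjusted p = 0.0591).

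Of 5 methylases of H3K36 and H3K79, 2 were called higher (40%, against 20.5% of all genes) and 1 lower (20%, against 43.2%). Nsd2, a dimethylase activated by translocation in myeloma, had 9.99 and 9.91 in MEL, against 9.32 and 9.42 in ES-EP, a difference of 0.58 ± 0.08 (adjusted p = 0.000166). Nsd1, a second dimethylase, had 9.66 and 9.56 in MEL, against 9.22 and 9.28 in ES-EP, a difference of 0.36 ± 0.08 (adjusted p = 0.00312). Nsd3, the third, had 8.69 and 8.71 in MEL, against 8.70 and 8.96 in ES-EP, and these values overlapped (-0.13 ± 0.10, adjusted p = 0.273). The MEL arrays lay above the ES-EP arrays for Nsd2 and Nsd1, and the share of all genes without overlap was not counted. Setd2, the trimethylase that travels with elongating RNA polymerase, had 8.63 and 8.84 in MEL, against 9.32 and 9.42 in ES-EP, a difference of -0.63 ± 0.09 (adjusted p = 0.000191). A second Setd2 probe set was lower by less (-0.31 ± 0.09, adjusted p = 0.0143). Dot1l, the only H3K79 methylase, had 9.06 and 8.94 in MEL, against 9.01 and 9.35 in ES-EP, which overlapped and was not called (-0.18 ± 0.11, adjusted p = 0.18).

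Of the H4K20 methylases, Kmt5c, which makes the trimethyl mark of pericentric heterochromatin, was higher in MEL. It had 9.51 and 9.39 in MEL, against 8.54 and 8.63 in ES-EP, a difference of 0.87 ± 0.09 (adjusted p = 9.33e-06), or 1.83-fold. Kmt5a, which places the first methyl group and is needed through mitosis, had 10.63 and 10.53 in MEL, against 10.58 and 10.63 in ES-EP. Kmt5b, which dimethylates H4K20, had 8.03 and 8.05 in MEL, against 8.02 and 8.22 in ES-EP. The arrays of the cell types overlapped for both, and neither was called (Kmt5a -0.03 ± 0.08, adjusted p = 0.788, Kmt5b -0.08 ± 0.09, adjusted p = 0.462). In total 12 of 26 methylases were called higher (46.2%, against 20.5% of all genes) and 4 lower (15.4%, against 43.2%). None reached 2-fold in the values as deposited (Kmt5c did with median centring, at 1.02).

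The demethylases held 3 of the 5 members that were 2-fold higher in MEL. That is 3 of 15 demethylases, a small count, against 5.72% of all genes. All 3 KDM5 members, which strip di- and trimethyl groups from H3K4, were called higher, against 20.5% of all genes. Kdm5b, a repressor of differentiation genes in stem and cancer cells, had 10.61 and 10.48 in MEL, against 8.92 and 9.04 in ES-EP, a difference of 1.56 ± 0.09 (adjusted p = 9.89e-08), or 2.95-fold. Kdm5c, an X-linked gene, had 10.29 and 10.31 in MEL, against 9.14 and 9.32 in ES-EP, a difference of 1.08 ± 0.09 (adjusted p = 2.19e-06), or 2.11-fold. Kdm5a, first known as a partner of the retinoblastoma protein, had 9.55 and 9.50 in MEL, against 9.01 and 9.29 in ES-EP, a difference of 0.38 ± 0.10 (adjusted p = 0.00758). No MEL value of these 3 genes fell within the ES-EP range. The Kdm5a call was lost without MEL A (difference 0.35, adjusted p = 0.0731) and without ES-EP A (0.24, adjusted p = 0.0592), while those of Kdm5b and Kdm5c held in each alternative run.

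**Figure D2:**
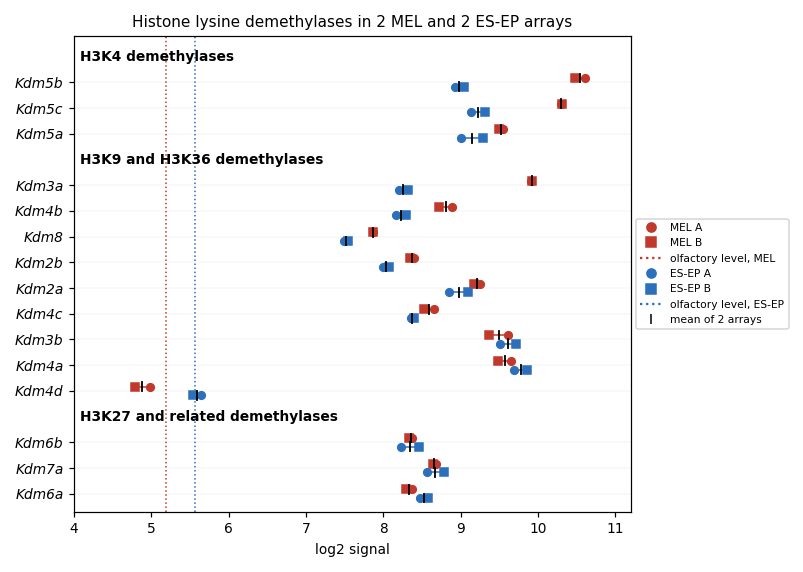
Log2 signal of 15 demethylases in MEL A and B (red, upper mark of each row) and ES-EP A and B (blue, lower mark), with circles for A, squares for B and a black tick for the mean of 2 arrays. Dotted lines are the olfactory levels, and the widest gaps are those of Kdm3a, Kdm5b and Kdm5c, whose MEL arrays lie at the right.

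Kdm3a, which removes mono- and dimethyl groups from H3K9 and is itself induced by low oxygen, had the largest difference of all members. It had 9.91 and 9.93 in MEL, against 8.20 and 8.31 in ES-EP, a difference of 1.66 ± 0.08 (adjusted p = 3.67e-08), or 3.17-fold, and the arrays of each cell type lay close together. Its paralog Kdm3b had 9.61 and 9.37 in MEL, against 9.51 and 9.72 in ES-EP, which overlapped (-0.12 ± 0.11, adjusted p = 0.339). Of the KDM4 enzymes, which act on trimethylated H3K9 and H3K36, Kdm4b was higher and Kdm4d lower. Kdm4b had 8.89 and 8.73 in MEL, against 8.17 and 8.29 in ES-EP, a difference of 0.58 ± 0.09 (adjusted p = 0.000285). Kdm4c had 8.66 and 8.53 in MEL, against 8.36 and 8.40 in ES-EP, a call near the threshold (0.21 ± 0.08, adjusted p = 0.0457) that was lost when any 1 of the 4 arrays was left out (adjusted p of 0.0575 to 0.25). Kdm4a had 9.66 and 9.48 in MEL, against 9.69 and 9.86 in ES-EP, with both MEL arrays below both ES-EP arrays, but was not called (-0.21 ± 0.10, adjusted p = 0.0792). Kdm4d, a testis gene in the mouse, had 4.98 and 4.79 in MEL, against 5.64 and 5.54 in ES-EP, with the MEL arrays under the olfactory level of 5.19 and ES-EP A just above its own level of 5.56 (-0.71 ± 0.09, adjusted p = 7.15e-05).

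Kdm2b, a CpG-binding demethylase of H3K36 that brings in a Polycomb complex, had 8.40 and 8.34 in MEL, against 7.99 and 8.07 in ES-EP, a difference of 0.34 ± 0.08 (adjusted p = 0.00416). Kdm2a, its paralog, had 9.25 and 9.17 in MEL, against 8.85 and 9.09 in ES-EP, a difference of 0.24 ± 0.10 (adjusted p = 0.0495). Its call was lost without any 1 of MEL A, MEL B and ES-EP A (adjusted p of 0.113 to 0.306). Kdm8, a Jumonji protein first described as an H3K36 demethylase, had 7.86 and 7.86 in MEL, against 7.49 and 7.54 in ES-EP, a difference of 0.34 ± 0.08 (adjusted p = 0.00329), with no overlap between the cell types. Of these 9 demethylases of H3K9 and H3K36, 6 were called higher (66.7%, against 20.5% of all genes) and 1 lower (11.1%, against 43.2%). The H3K27 demethylases were called in 0 of 3 by limma, against 20.5% of all genes called higher and 43.2% lower. At an unadjusted limma p under 0.05, 1 passed, Kdm6a. Kdm6a, an X-linked partner of the enhancer methylases, had 8.37 and 8.30 in MEL, against 8.47 and 8.57 in ES-EP, with both MEL arrays below both ES-EP arrays, and was not called (-0.19 ± 0.08, adjusted p = 0.0674). Kdm6b had 8.38 and 8.33 in MEL, against 8.23 and 8.46 in ES-EP (0.01 ± 0.09, adjusted p = 0.933), and the cell types overlapped. Kdm7a, which also acts on H3K9, was not called (-0.01 ± 0.09, adjusted p = 0.908), but its dimmer probe set was lower in MEL (-0.58 ± 0.12, adjusted p = 0.00197). Over all 15 demethylases 9 were called higher (60%, against 20.5% of all genes) and 1 lower (6.67%, against 43.2%).

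The remaining PRDM factors are zinc-finger proteins with a PR domain that mostly act as transcription factors. They were called higher in 0 of 10 (against 20.5% of all genes) and lower in 3 (30%, against 43.2%). By limma at an unadjusted p under 0.05, 1 was higher (Prdm15). Prdm11, a PR-domain repressor, had 7.34 and 7.31 in MEL, against 8.37 and 8.58 in ES-EP, a difference of -1.15 ± 0.09 (adjusted p = 1.78e-06), or 2.22-fold lower. Prdm8, a neural and retinal repressor, had 5.46 and 5.55 in MEL, against 6.02 and 5.92 in ES-EP, a difference of -0.47 ± 0.08 (adjusted p = 0.00075). Prdm16, known for brown fat and for blood stem cells, had 5.51 and 5.69 in MEL, against 6.07 and 6.04 in ES-EP, a difference of -0.45 ± 0.09 (adjusted p = 0.00127). Both MEL arrays were below both ES-EP arrays in each, and the signals of Prdm8 and Prdm16 were little above the olfactory level. With cyclic loess both differences were -0.24 and still called. The other 7 differed by -0.21 (Prdm13) to 0.24 (Prdm15) and were not called. Other scalings called some of them higher, namely Prdm4 and Prdm15 with median centring, Prdm1 and Prdm4 with quantile normalization and all 3 with cyclic loess. Of these, Prdm1 (the plasma cell regulator Blimp-1), Prdm6 and Prdm14 (a germ cell and pluripotency factor) were under the olfactory level in both cell types.

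**Figure D3:**
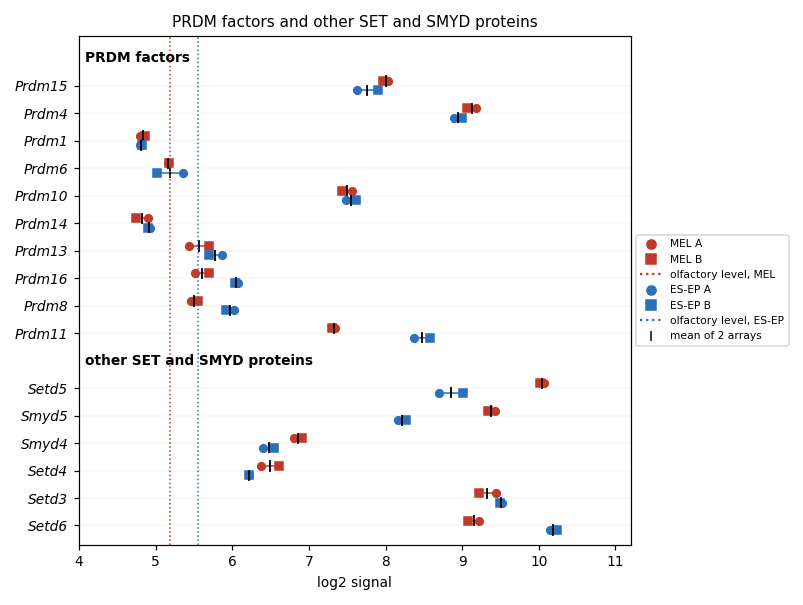
Log2 signal of 10 PRDM factors and 6 other SET and SMYD proteins in MEL A and B (red, upper mark of each row) and ES-EP A and B (blue, lower mark), with circles for A, squares for B and a black tick for the mean of 2 arrays. Dotted lines are the olfactory levels of 5.19 in MEL and 5.56 in ES-EP; Prdm11 and Setd6 lie to the left in MEL, Setd5 and Smyd5 to the right.

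Among 6 SET and SMYD proteins with other or debated substrates, 4 were called higher (66.7%, against 20.5% of all genes) and 1 lower (16.7%, against 43.2%). Setd5, found with co-repressor and deacetylase complexes, had 10.07 and 10.01 in MEL, against 8.70 and 9.01 in ES-EP, a difference of 1.18 ± 0.11 (adjusted p = 4.34e-06), or 2.27-fold. Smyd5, reported to methylate H4K20, had 9.42 and 9.34 in MEL, against 8.16 and 8.26 in ES-EP, a difference of 1.17 ± 0.08 (adjusted p = 7.85e-07), or 2.25-fold. The lowest MEL array was well above the highest ES-EP array in both. Smyd4 had 6.81 and 6.91 in MEL, against 6.40 and 6.55 in ES-EP, a difference of 0.39 ± 0.09 (adjusted p = 0.00299). Setd4 had 6.37 and 6.61 in MEL, against 6.22 and 6.22 in ES-EP, a difference of 0.27 ± 0.09 (adjusted p = 0.0283), a call lost without MEL B (difference 0.15, adjusted p = 0.242), without ES-EP A (adjusted p = 0.088) and without ES-EP B (adjusted p = 0.085). Setd6, which methylates the NF-κB subunit RelA, had 9.22 and 9.08 in MEL, against 10.14 and 10.24 in ES-EP, a difference of -1.04 ± 0.09 (adjusted p = 2.89e-06), or 2.05-fold lower. Setd3, an actin histidine methylase, was not called (-0.18 ± 0.09, adjusted p = 0.12), while its dimmer probe set was lower in MEL (-0.38 ± 0.08, adjusted p = 0.00195).

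**Figure D4:**
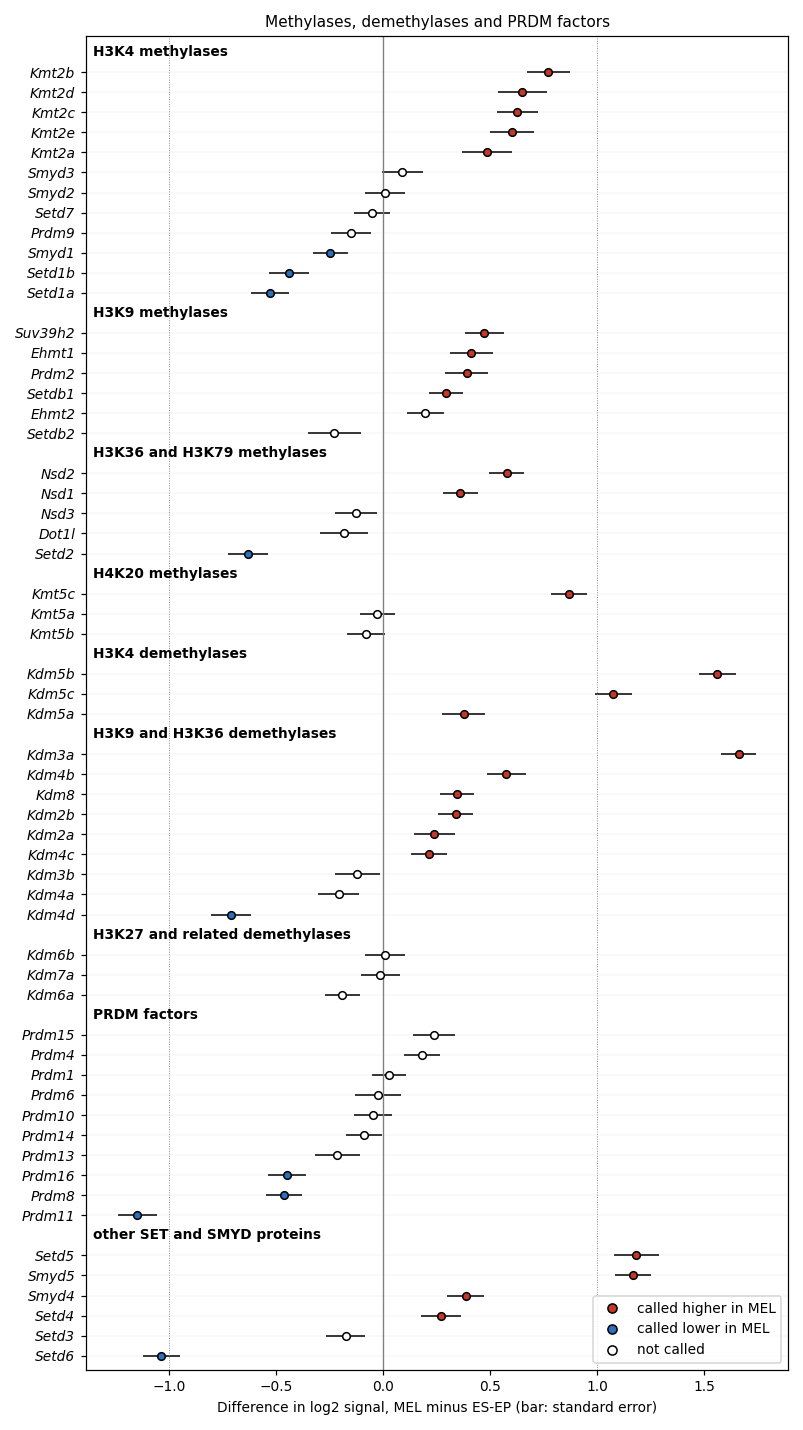
Difference in log2 signal, MEL minus ES-EP, for all 57 members by role, with bars for the standard error of the limma fit over 2 arrays per cell type. Red points were called higher in MEL (25), blue lower (9) and white were not called (23), and dotted lines mark a 2-fold difference.

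Members moved within a cell type as well. ES-EP B was above ES-EP A for 49 of 57 members (86.0%), by a median of 0.12, against 60.2% of all genes, by a median of 0.03. Among genes above the olfactory level in both cell types the share was 66.7%, by a median of 0.05. ES-EP B was above for 25 of 25 members called higher in MEL, so that ES-EP A lay farther from MEL for each. The same count was not made over all genes called higher. MEL B was above MEL A for 22 of 57 members (38.6%), against 39.4% of all genes. Without ES-EP A, 21 members were called higher and 12 lower, and without ES-EP B, 25 and 9. The part of this array difference in the results was not tested.

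Partner genes were read from lists of complexes, with 48 of 50 measured, of which 19 were called higher (39.6%, against 20.5% of all genes) and 18 lower (37.5%, against 43.2%). The COMPASS and MLL complexes hold the KMT2 and Setd1 enzymes. Their subunits were called higher in 10 of 14 (71.4%, against 20.5% of all genes) and lower in 0 (against 43.2%). By limma at an unadjusted p under 0.05, 1 was lower (Rbbp5). Ash2l, a core subunit of every such complex, had 11.01 and 11.10 in MEL, against 10.14 and 10.09 in ES-EP, a difference of 0.94 ± 0.08 (adjusted p = 3.49e-06). Cxxc1, the CpG-binding subunit of the Setd1 complexes, had 9.64 and 9.59 in MEL, against 8.76 and 8.99 in ES-EP, a difference of 0.74 ± 0.10 (adjusted p = 7.06e-05). Men1, the menin subunit that tethers Kmt2a and Kmt2b, had 9.93 and 9.79 in MEL, against 9.18 and 9.40 in ES-EP, a difference of 0.57 ± 0.10 (adjusted p = 0.000492). In each the MEL arrays were above the ES-EP arrays. The core subunit Rbbp5 was not called (-0.22 ± 0.09, adjusted p = 0.053), nor was Wdr82 of the Setd1 complexes (-0.08 ± 0.08, adjusted p = 0.401).

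Readers and co-factors of H3K9 methylation were called higher in 2 of 11 (18.2%, against 20.5% of all genes) and lower in 5 (45.5%, against 43.2%), shares near the background. Trim28, the partner of Setdb1, had 11.49 and 11.39 in MEL, against 11.03 and 11.12 in ES-EP, a difference of 0.36 ± 0.08 (adjusted p = 0.00329). Cbx5, which encodes HP1α, had 10.23 and 10.13 in MEL, against 10.87 and 10.93 in ES-EP, a difference of -0.72 ± 0.08 (adjusted p = 3.05e-05). Tasor, a subunit of the HUSH silencing complex, had 8.33 and 8.32 in MEL, against 8.90 and 9.05 in ES-EP, a difference of -0.65 ± 0.09 (adjusted p = 8.3e-05). Hence Cbx5 and Tasor were lower in both MEL arrays, and Trim28 was higher. Cdyl, a chromodomain co-repressor that binds Ehmt2, had the largest difference of the list, with 7.19 and 7.09 in MEL, against 8.63 and 8.68 in ES-EP, a difference of -1.52 ± 0.08 (adjusted p = 7.41e-08), or 2.86-fold lower. Partners of Dot1l and elongation factors were called higher in 3 of 11 (27.3%, against 20.5% of all genes) and lower in 6 (54.5%, against 43.2%). Mllt3, a Dot1l-binding protein, had 8.34 and 8.33 in MEL, against 9.30 and 9.36 in ES-EP, a difference of -0.99 ± 0.08 (adjusted p = 1.88e-06). Ell, an elongation factor, had 7.60 and 7.50 in MEL, against 8.35 and 8.55 in ES-EP, a difference of -0.90 ± 0.09 (adjusted p = 1.35e-05). Mllt6 had 7.84 and 7.62 in MEL, against 6.77 and 6.97 in ES-EP, a difference of 0.86 ± 0.10 (adjusted p = 3.86e-05). The MEL arrays were therefore below the ES-EP arrays for Mllt3 and Ell and above them for Mllt6.

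Methylases and demethylases with symbols outside the rule were called higher in 4 of 12 measured (33.3%, against 20.5% of all genes). They were called lower in 7 (58.3%, against 43.2%), of which Mecom was under the olfactory level in both cell types (4.10 in MEL and 4.50 in ES-EP). Phf8, an X-linked demethylase of H3K9 and H4K20, had 8.64 and 8.58 in MEL, against 7.47 and 7.75 in ES-EP, a difference of 1.00 ± 0.10 (adjusted p = 1.19e-05), or 2-fold. Kdm1b, a flavin-dependent H3K4 demethylase, had 7.92 and 8.00 in MEL, against 7.07 and 7.13 in ES-EP, a difference of 0.87 ± 0.08 (adjusted p = 6.81e-06). Its paralog Kdm1a, known in erythroid cells as a co-factor of Gfi1b, had 10.13 and 10.12 in MEL, against 10.03 and 10.09 in ES-EP and was not called (0.06 ± 0.08, adjusted p = 0.514). Jmjd1c, the third relative of Kdm3a and Kdm3b, had 8.70 and 8.59 in MEL, against 9.29 and 9.44 in ES-EP, a difference of -0.72 ± 0.09 (adjusted p = 5.75e-05). Its dimmest probe set gave -3.56 (adjusted p = 2.5e-09), so the size of this difference depends on the probe set. Thus in the Kdm3 family the MEL arrays were above the ES-EP arrays for Kdm3a, overlapped them for Kdm3b and were below them for Jmjd1c.

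**Figure D5:**
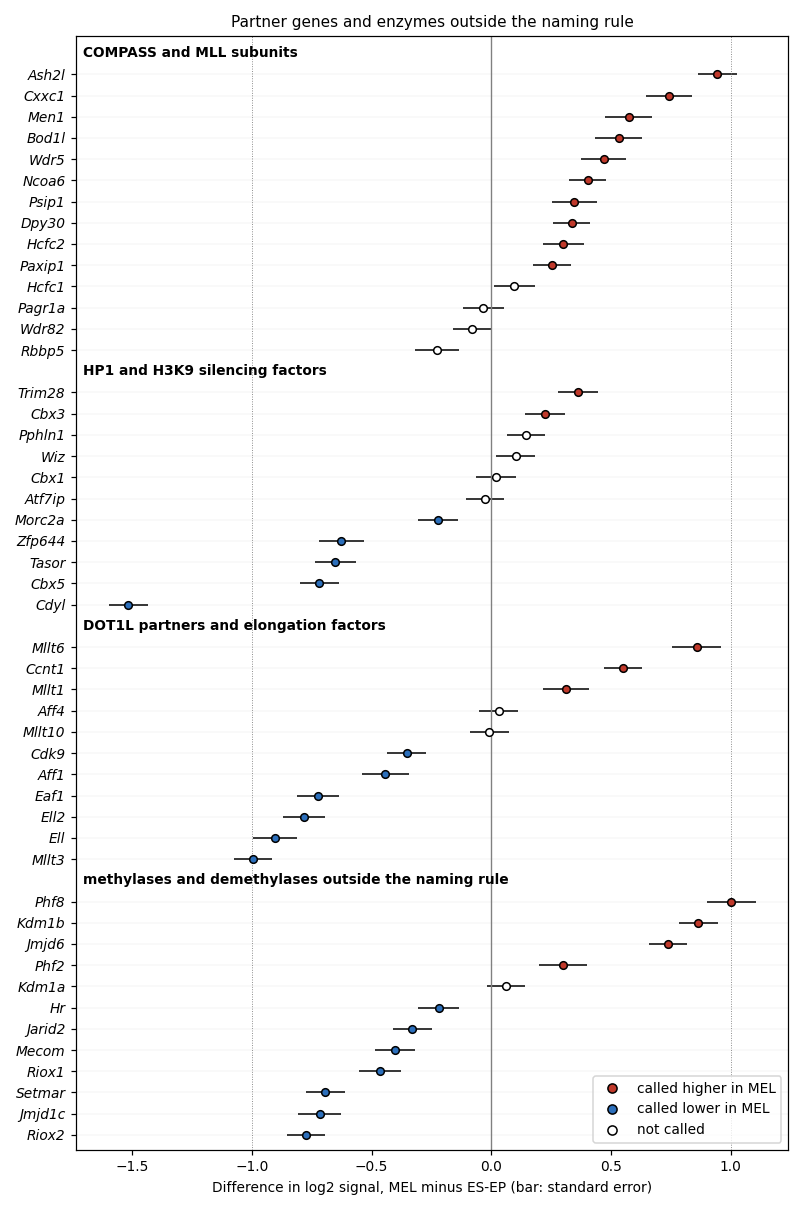
Difference in log2 signal, MEL minus ES-EP, for 48 partner genes by list, with bars for the standard error of the limma fit over 2 arrays per cell type. Red points were called higher in MEL (19), blue lower (18) and white were not called (11), and dotted lines mark a 2-fold difference.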

How the data were processed

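The authors deposited 1 column of RMA values per array, made in GeneSpring GX per the labels. The deposited log2 signals had been background-corrected, normalised and summarised per probe set by the authors with RMA, for 2 arrays of MEL and 2 of ES-EP (Affymetrix Mouse Gene 1.0 ST). The study averaged duplicates and used a 2-fold rule with no test. RMA equalises arrays before probe sets are summarised, yet the deposited medians differ, so a shift common to many genes enters each difference. Probe sets with 1 symbol in the platform's gene table (21789) gave 19938 genes, by the probe set of highest mean; 1621 with several symbols and 12147 unnamed here were left out. Differences were tested with limma 3.58.1 in R 4.3.3 (lmFit and eBayes, two-sided, 2 residual degrees of freedom per gene, no block) with Benjamini-Hochberg adjustment over all genes. A permutation of 2 against 2 arrays cannot go below p = 0.333, so none was used. For each gene limma combined its own spread with a variance shared over all genes, with 8.2 prior degrees of freedom against 2 residual. The p-values and standard errors thus rest largely on that shared variance. Duplicates were separate cultures of 1 line each, so the spread covers cultures and arrays and not other lines or animals. The number of arrays limits the precision. The fit was tested on simulated data.

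The members and gene lists were chosen with earlier results of these data known. Array values are given for the 12 called members with the largest difference in each direction (9 were called lower), up to 3 called members per role and direction, and paralog sets. Olfactory levels were the 95th percentile of mean signals of olfactory receptor genes. Overlap between the arrays of the cell types was read gene by gene, and its share over all genes was not counted. Alternatives were quantile normalization, median centring, cyclic loess, a filter at the median signal, other probe set rules, eBayes with trend and robust options, a replicate block, a test against 1.2-fold and leaving out each array. Partner lists held 50 genes, of which Mphosph8 and Ash1l were not analysed here.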

Additional observations from a re-analysis of the deposited data

How the results depend on the processing

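Under the 13 alternatives 0 of 34 called members changed sign, while 15 of 23 uncalled members did so in 1 or more. Part of this was fixed in advance. The median-signal filter, the trend and robust options, the replicate block and the 1.2-fold test kept the differences of the main fit. The other probe set rules could not change the values of the 51 members on 1 probe set. Quantile normalization, median centring and cyclic loess moved the median over all genes to -0.03, -0.01 and 0.00, and called 5344, 5757 and 5676 genes higher and 5974, 5644 and 5460 lower, against 4096 higher and 8622 lower as deposited. Under these 3 scalings 28, 29 and 29 members were called higher and 8 each lower, the 2-fold higher count was 5, 6 and 5, the 2-fold lower count was 1 each, and the median member difference was 0.22, 0.24 and 0.25. It was 0.24 in the 48 members at or above the median signal, and the members stayed 0.24 to 0.25 above all genes under the 3 scalings. The test against a 1.2-fold difference called 12 members higher and 5 lower, and 9 partner genes higher and 11 lower. The 17 member calls it ended were those of Kmt2a, Smyd1, Setd1b, Suv39h2, Ehmt1, Prdm2, Setdb1, Nsd1, Kdm5a, Kdm8, Kdm2b, Kdm2a, Kdm4c, Prdm8, Prdm16, Smyd4 and Setd4. Averaging probe sets gave 18 and 19 partner genes, against 19 and 18. Same-letter arrays deviated with r = -0.04 across genes, which cannot show how the cultures were set up. The labels do not say whether the letters pair them. With the replicate block 25 members were called higher and 10 lower, and 24 and 9 of the main calls were kept. The blocked limma fit gave Kdm3a an adjusted p of 1.16e-56, far smaller than 4 arrays can bear out. Its counts are therefore weak support. Leaving out 1 array gave 20 to 25 members higher and 8 to 12 lower, a 2-fold higher count of 4 to 5, a 2-fold lower count of 1 to 2, the 1 without MEL B and without ES-EP B, and a median difference of 0.058 to 0.15. An arm of 1 array was assumed to vary like the other. Counting members above the olfactory level in both cell types, an alternative chosen after seeing the data, gave 25 higher and 7 lower. Of 34 called members 16 were called in every alternative that gave a value and 18 were lost in 1 or more, most often Smyd1 (7), Kdm4c (6) and Kdm2a (5). Of 23 uncalled members 13 were called in 1 or more. The cause of these changes was not tested.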
